A study of Mus musculus with 8 samples.

Results

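Transcripts of 10 genes known from the endothelial cells of brain vessels were measured in microglia of the mouse hypothalamus, sorted into cells with and without label from injected plasma protein. The 10 genes (Cldn5, Pecam1, Flt1, Kdr, Tek, Cdh5, Cd34, Ly6c1, Slco1a4 and Itm2a) were chosen by name as a check on vessel material carried through the sort, and each matched 1 of the 35583 genes of the deposited count table. Cd34 was abundant in every library and was 1.79-fold higher in the microglia with plasma label. The vessel genes Cldn5, Ly6c1, Slco1a4 and Itm2a had 0 reads in all 4 libraries without label, and also in replicate 4 with label. Of all genes with counts, 9.66% were at 0 without label and had more than 3 counts with label. Pecam1 overlapped between the groups, and Kdr had 449 counts without and 155 with label. Neither of these was called. Tek had 0 reads in all 8 libraries.

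The mice were young and wild-type, the dye-labelled plasma protein had been injected 20 hours earlier, and all groups shared that injection, per the labels. There were 4 libraries of plasma-positive and 4 of plasma-negative microglia, made with Smart-seq2, which copies whole transcripts from small amounts of RNA and carries no molecular identifiers. The labels do not give the sorting gates, the number of mice behind a library, or whether replicates came from separate animals, so p-values measure the spread between these libraries only. Total counts ran from 2963094 in plasma-negative replicate 4 to 21422738, and CPM below stands for reads relative to each TMM-scaled library total. The labelled cell type was checked on 13 microglia markers, none of which was at 0, and their summed level was 70506 to 82908 CPM in plasma-negative and 78398 to 84354 CPM in plasma-positive libraries. Plasma-positive replicate 3 stood apart in S100a8, a calcium-binding protein of neutrophils and monocytes, with 299.9 CPM against at most 0.336 CPM in the other 7 libraries.

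Brain endothelial cells line the vessels and form the blood-brain barrier, sealed by tight junctions and supplied with transporters that select what crosses. Claudin-5, the product of Cldn5, is the main claudin of these junctions, and its transcript is among the most abundant of brain endothelium. CD34, a sialomucin of the cell surface, is known from vascular endothelium and from blood-forming progenitors, and has also been described on activated microglia of the mouse brain.

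Cd34 (ENSMUSG00000016494, chromosome 1, 194938819 to 194961279 in mm10) had by far the highest level per length of the 10 genes. Its deposited RPKM, a read count scaled by exon length and library size, was 30.6, 30.7, 34.4 and 45.1 in plasma-negative replicates 1 to 4 and 73.2, 64.1, 68.2 and 69.1 in plasma-positive replicates 1 to 4. Averaged over the 8 libraries its RPKM of 51.9 ranked 584 among the 19844 genes with any reads. In CPM, plasma-negative replicates 1 to 4 stood at 306, 311, 347 and 439, and plasma-positive replicates 1 to 4 at 667, 574, 619 and 651. The lowest plasma-positive library thus exceeded the highest plasma-negative library by 135 CPM, and the plasma-negative library nearest to the other group was replicate 4, the shallowest. The groups kept apart in this direction in 5.68% of the 13277 genes tested, and in either direction in 10.3%.

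Mean Cd34 was 351 ± 62.0 CPM in plasma-negative and 628 ± 41.0 CPM in plasma-positive libraries (SD, n = 4). The log2 change was 0.84 with an SE of 0.12 and a 95% interval of 0.58 to 1.11, which is a fold of 1.79 with an interval of 1.49 to 2.15 (edgeR quasi-likelihood test, adjusted p = 0.00689). A log2 change at least as high, at any p, was found in 7.97% of the genes tested. The call was not kept with an offset for exon length, with a log2 change of 0.86 (edgeR, adjusted p = 0.0737), nor with plasma-positive replicates 2 and 3 both left out, with 0.92 (edgeR, adjusted p = 0.0766). Of the 7290 bases of Cd34 exons, 148 (2.03%) overlap Gm16897 on the other strand, and reads from those bases cannot be told apart between the genes, since this protocol does not mark strand. Gm16897 as a whole had 16.2 to 28.3 CPM in plasma-negative and 34.3 to 38.8 CPM in plasma-positive libraries. In bulk libraries, more cells that transcribe Cd34 and more Cd34 RNA per cell cannot be told apart.

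**Figure D1:**
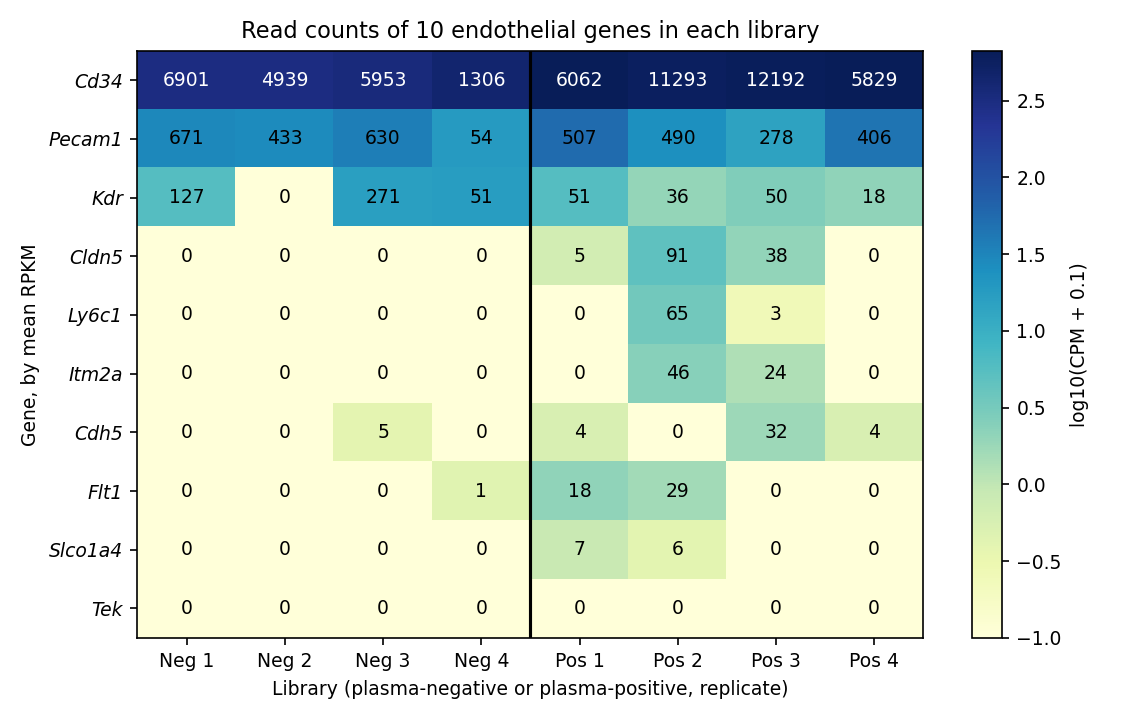
Read counts (numbers) and level (colour, log10 of CPM plus 0.1) of the 10 genes in rows, ordered by mean RPKM, with the 4 plasma-negative (Neg) and 4 plasma-positive (Pos) libraries in columns by replicate. Cd34 fills the top row in all libraries, from 1306 to 12192 counts, while Cldn5, Ly6c1 and Itm2a have counts mainly in plasma-positive replicates 2 and 3 and Tek has none.

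The start of Cd34 is set beside those of Cldn5 and Tek, because these 3 genes mark the range seen here, from abundant in every library to listed at 0 in all of them. Printed are the 250 bases before each annotated start, from RefSeq (GRCm38.p6), at chr1:194938571-194938820, chr16:18776597-18776846 and chr4:94739039-94739288, all on the plus strand. The Cd34 stretch ends just inside the gene as located above, since RefSeq sets its start further in. Capitals mark GGAA, the core letters of sites for ETS factors, a family with members active in endothelial and in myeloid cells, searched on both strands and so also as TTCC.
Cd34: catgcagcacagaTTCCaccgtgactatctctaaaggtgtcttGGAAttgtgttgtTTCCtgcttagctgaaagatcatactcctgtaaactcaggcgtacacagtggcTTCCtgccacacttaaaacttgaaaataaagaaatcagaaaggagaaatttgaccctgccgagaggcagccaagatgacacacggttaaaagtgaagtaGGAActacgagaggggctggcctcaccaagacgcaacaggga
Cldn5: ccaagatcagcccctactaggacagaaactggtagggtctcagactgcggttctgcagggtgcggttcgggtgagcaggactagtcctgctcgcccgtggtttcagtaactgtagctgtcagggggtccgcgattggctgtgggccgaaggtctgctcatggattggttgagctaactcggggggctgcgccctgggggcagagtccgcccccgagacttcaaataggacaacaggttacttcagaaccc
Tek: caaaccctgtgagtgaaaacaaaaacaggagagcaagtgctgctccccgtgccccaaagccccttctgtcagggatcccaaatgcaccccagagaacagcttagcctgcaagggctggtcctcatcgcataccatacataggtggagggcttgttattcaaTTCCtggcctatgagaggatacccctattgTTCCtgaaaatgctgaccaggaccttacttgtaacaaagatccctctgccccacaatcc
The Cd34 stretch held 5 matches, the Tek stretch 2 and the Cldn5 stretch 0. Among the members not printed, the Kdr, Flt1, Slco1a4 and Itm2a stretches held 4 each, and 2 stretches of Ly6c1 held 4 and 6. Of 32851 promoter stretches of this length, 93.4% held at least 1 match, the median number was 3, and 18% held at least 5. The longer motif GAGGAA, which contains the shorter motif and is a core of PU.1 sites in myeloid genes, was searched on both strands and was in none of the 3 stretches and in 23.3% of all. Among the members not printed, GAGGAA was in the Flt1 stretch and in each Ly6c1 stretch. These matches describe letters only, and 8 of the 10 genes had an entry.

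The junction genes were far lower than Cd34. Pecam1 (ENSMUSG00000020717, chromosome 11, 106654217 to 106750628) encodes CD31, an adhesion molecule of endothelial junctions that platelets and white blood cells also carry. It was at 29.7, 27.3, 36.7 and 18.2 CPM in plasma-negative replicates 1 to 4 and at 55.8, 24.9, 14.1 and 45.4 CPM in plasma-positive replicates 1 to 4. The groups overlapped, and the plasma-positive group held both the highest and the lowest library. The log2 change was 0.31 with a 95% interval of -0.57 to 1.20 (edgeR, adjusted p = 0.81), and it was -0.0014 without plasma-positive replicate 1. With plasma-positive replicates 2 and 3 both left out it was 0.85, beside 0.92 for Cd34 in that fit, with an unadjusted p of 0.0336 for Pecam1 (edgeR, adjusted p = 0.468).

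Cldn5 (ENSMUSG00000041378, chromosome 16, 18776847 to 18778262), a gene of 1 exon, had 0 counts in each plasma-negative library and 5, 91, 38 and 0 counts in plasma-positive replicates 1 to 4. Pooled over each group, its reads were at least 45.6-fold higher in plasma-positive libraries, taking 3 counts over the group as the floor for 0. This rests on replicates 2 and 3, with at least 22.3-fold left without replicate 2, and plasma-positive replicate 4 was listed at 0 like the plasma-negative libraries. Cdh5 (ENSMUSG00000031871, chromosome 8, 104101625 to 104144511), the gene of VE-cadherin in adherens junctions, had 5 counts in plasma-negative replicate 3 and 0 in the other plasma-negative libraries. In plasma-positive replicates 1 to 4 it had 4, 0, 32 and 4 counts. Cdh5 and Cldn5 therefore peaked in different libraries, replicate 3 and replicate 2. Neither gene passed the filter on low counts.

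Among the receptors, Kdr (ENSMUSG00000062960, chromosome 5, 75932827 to 75978458), the main signalling receptor for VEGF-A, was the one found in most libraries. It stood at 5.62, 0, 15.8 and 17.2 CPM in plasma-negative replicates 1 to 4 and at 5.61, 1.83, 2.54 and 2.01 CPM in plasma-positive replicates 1 to 4. Plasma-negative replicates 3 and 4 lay above all plasma-positive libraries, replicate 1 was level with plasma-positive replicate 1, and replicate 2 was listed at 0 out of 15206086 counts. The log2 change was -1.68 with a 95% interval of -4.23 to 0.87 (edgeR, adjusted p = 0.594), and with single libraries left out it ran from -1.25 without plasma-negative replicate 4 to -2.16 without plasma-positive replicate 1, called in none of these 8 fits (edgeR, adjusted p at least 0.216). On log2(RPKM + 1) and log2(RPKM + 0.1) it was -0.42 and -0.76 in limma.

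Flt1 (ENSMUSG00000029648, chromosome 5, 147561604 to 147726011), the receptor that binds VEGF-A tightly and signals weakly, had 1 count in plasma-negative replicate 4 and 18 and 29 counts in plasma-positive replicates 1 and 2. The other 5 libraries were at 0. The pooled ratio of 47.99 had a counting interval of 8.20 to 1935, from the 1 count in the plasma-negative group. Tek (ENSMUSG00000006386, chromosome 4, 94739289 to 94874976), the angiopoietin receptor TIE2, was at 0 in all 8 libraries, which over 115689588 counts allows up to 0.0259 CPM. Such floors and counting intervals cover counting error only, since amplified reads are not independent molecules.

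The transporter gene Slco1a4 (ENSMUSG00000030237, chromosome 6, 141805440 to 141856199), which encodes an organic anion transporter of the blood-brain barrier, had 7 and 6 counts in plasma-positive replicates 1 and 2 and 0 elsewhere. Its pooled reads were at least 4.42-fold higher in plasma-positive libraries, and at least 2.43-fold without replicate 1. Ly6c1 (ENSMUSG00000079018, chromosome 15, 75044018 to 75048830), a lipid-anchored surface protein, had 65 and 3 counts in plasma-positive replicates 2 and 3 and 0 elsewhere, at least 23.1-fold higher over the pooled reads. Without replicate 2 the 3 counts left equal the floor, so no bound remains. Of the 50-base stretches of its transcripts in GENCODE M21, 32.8% also occur in another gene, most often Ly6c2, a close copy known from monocytes, so reads may be split between them. Ly6c2 itself had 60 counts in plasma-positive replicate 3 and 0 elsewhere, so most reads of the pair lay in different libraries. Itm2a (ENSMUSG00000031239, chromosome X, 107397099 to 107403376), an integral membrane protein, had 46 and 24 counts in plasma-positive replicates 2 and 3 and 0 elsewhere, at least 23.8-fold higher over the pooled reads and at least 12.4-fold without replicate 2.

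Ordered by mean RPKM over the 8 libraries, Cd34 at 51.9 was followed by Pecam1 at 3.87, Kdr at 0.525, Cldn5 at 0.508, Ly6c1 at 0.210, Itm2a at 0.207, Cdh5 at 0.0658, Flt1 at 0.0281 and Slco1a4 at 0.0168. Cd34 did not overlap with Pecam1, whose RPKM reached at most 7.16. Pecam1, at 1.82 or more, did not overlap with Kdr, at 1.42 or less. From Kdr down each neighbouring pair overlapped over the libraries, so their order is not resolved. In plasma-positive replicate 2, where Cldn5 was highest, its RPKM was 2.66 and that of Cd34 was 64.1, and in plasma-positive replicate 4 Cldn5 was 0 and Cd34 was 69.1.

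Of the 10 genes, 3 passed the filter on low counts, Cd34, Pecam1 and Kdr, and 1 of these 3 was called, where 1.41% of all tested genes were called, 0.844% as higher and 0.565% as lower in plasma-positive libraries. The other 7 were too low for the filter. With no filter, edgeR tested 9 of the 10 genes and again called 1, Cd34, with Cldn5 next (adjusted p = 0.208). Whether Cd34 changed differently from the other 2 tested genes was asked of the log2 ratio within each library, a test added after the values were seen. The ratio of Cd34 to Pecam1 was higher by 0.67 in plasma-positive libraries (exact permutation test over 70 assignments, two-sided p = 0.2, adjusted over both pairs 0.4). The ratio of Cd34 to Kdr was higher by 1.29 (exact permutation p = 0.486, adjusted 0.486). The smallest p this design allows is 0.0286, so a difference in change between Cd34 and Pecam1 or Kdr was not shown, and the spread of those genes leaves it undetermined. With single libraries left out, the difference in the ratio to Kdr ran from 0.61 without plasma-negative replicate 3 (exact permutation p = 0.8) to 2.84 without plasma-negative replicate 2 (exact permutation p = 0.0286, not adjusted over the pairs or the libraries left out). That last p is the smallest possible with 1 library left out.

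The levels of Cd34 and of the other genes are set side by side here for each library, as a description of 4 libraries a group. In the plasma-positive group Pecam1, like Cd34, was highest in replicate 1 and next in replicate 4, and Kdr was highest in replicate 1. In the plasma-negative group Cd34 and Kdr were highest in replicate 4, where Pecam1 was lowest. The rarer genes were distributed otherwise. Summed over the 7 genes other than Cd34, Pecam1 and Kdr, plasma-positive replicates 1 to 4 held 3.74, 12.05, 4.92 and 0.447 CPM, while the plasma-negative libraries held 0, 0, 0.291 and 0.336 CPM. Plasma-positive replicate 2, the highest in this sum, had the lowest Cd34 of its group at 574 CPM. Replicate 4, the lowest in this sum, had the second highest Cd34 at 651 CPM. The number of the 10 genes with at least 3 counts was 3, 2, 4 and 3 in plasma-negative replicates 1 to 4 and 7, 8, 7 and 4 in plasma-positive replicates 1 to 4. With all libraries thinned to 2963094 counts, these numbers were 3, 2, 3 and 3 against 5, 7, 6 and 4. Cd34 made up 86.8% to 96.6% of the summed CPM of the 10 genes in each library. Because Cd34 split the libraries into separate groups of 4, too few for a correlation within a group, no correlation with the others of the 10 genes is given.

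**Figure D2:**
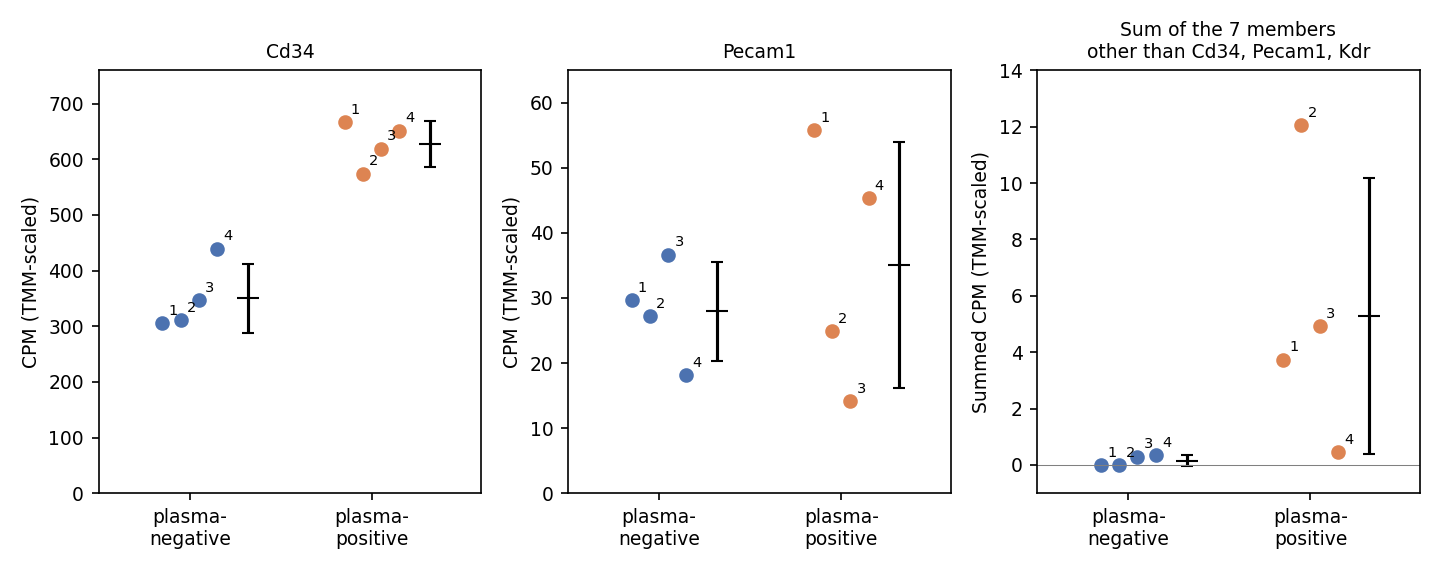
CPM of Cd34, CPM of Pecam1, and summed CPM of the 7 genes other than Cd34, Pecam1 and Kdr in each library (points numbered by replicate), with the mean and SD of each group of 4 as black bars. Cd34 separates the groups, from 306 to 439 against 574 to 667 CPM, whereas the 7-gene sum is highest in plasma-positive replicate 2 and under 0.5 CPM in plasma-positive replicate 4.

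A further list of 42 endothelial genes showed the same division into a few abundant genes and many near 0. Of the 42, 8 had 0 counts in all libraries, among them the barrier lipid transporter gene Mfsd2a, the thyroid hormone transporter gene Slco1c1 and the endothelial transcription factor gene Erg. Of 19 tested, 0 were called by edgeR in either direction, 11 had a positive and 8 a negative change, and their median log2 change was 0.05 beside 0.01 over all tested genes. These values describe the genes that passed the filter, not the whole list. At an unadjusted p under 0.05 there were 3 of the 19 (Abcg2, Tjp1 and Bsg), where 13.8% of all tested genes passed that level. DESeq2 called 1 of the 30 for which it gave a p, where it called 5.16% of all such genes. This was the tight junction scaffold gene Tjp1, at 73.9 ± 18.4 CPM without and 37.3 ± 10.1 CPM with label (SD, n = 4). The 6 highest per length were Bsg, Ecscr, Eng, Slc2a1, Ramp2 and Pltp. Bsg, which encodes the glycoprotein basigin, was at 624 ± 21.6 CPM without and 706 ± 39.0 CPM with label (SD, n = 4), and its log2 change was 0.18 (edgeR, adjusted p = 0.318). Eng, the co-receptor endoglin that macrophages can also carry, had 260 ± 30.2 and 298 ± 55.2 CPM, and Ecscr, a cell surface regulator of endothelial migration, 235 ± 29.6 and 243 ± 11.2 CPM. Slc2a1, the glucose transporter GLUT1, had 88.1 ± 23.6 and 76.3 ± 11.1 CPM, with log2 changes of 0.20 for Eng, 0.05 for Ecscr and -0.20 for Slc2a1 (edgeR, adjusted p = 0.606, 0.908 and 0.743). Ramp2, a partner of the calcitonin receptor-like receptor, and Pltp, a phospholipid transfer protein, had log2 changes of 0.46 and -0.03 (edgeR, adjusted p = 0.513 and 0.979).

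**Figure D3:**
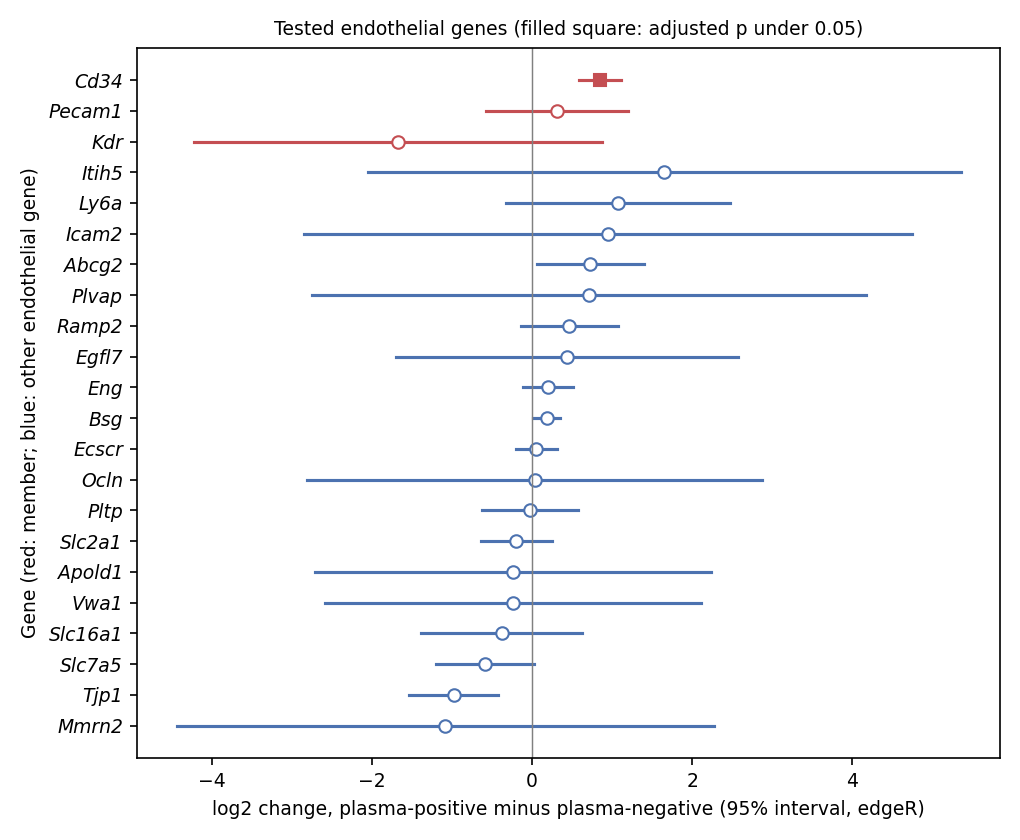
Log2 change between plasma-positive and plasma-negative libraries with its 95% interval for the 3 of the 10 genes (red) and the 19 other endothelial genes (blue) that passed the filter on low counts, by the edgeR fit over all genes. Cd34 at 0.84 is the one filled square, past an adjusted p of 0.05, and intervals of the genes with few reads span several log2 units.

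Genes with reads in plasma-positive libraries only were compared with the whole table. Of the 9 genes with any counts among the 10, 4 (44.4%) were at 0 in each plasma-negative library and had more than 3 counts over the plasma-positive ones, and 0 had the reverse. Of the 34 further endothelial genes with counts, 8 (23.5%) had the first pattern and 2 (5.88%) the reverse. Over all 19844 genes with counts these shares were 9.66% and 3.54%, and after thinning to equal totals 6.64% and 2.80%, where 3 of those 9 genes and 4 of the 32 further genes that still had counts kept the first pattern. The shares over all genes were not matched for read level, and genes with many reads are rarely at 0 in a whole group. The plasma-positive reads of the further endothelial genes with the first pattern lay in replicates 2 and 3. Car4, a carbonic anhydrase of the capillary surface, had 80 and 44 counts there and 0 elsewhere, and Ptprb, the endothelial phosphatase VE-PTP that acts on TIE2, had 26 and 12. Adgrf5 with 44 counts and Ctla2a with 25 were seen in replicate 2 alone, and Esam with 30, Sox17 with 29 and Emcn with 14 in replicate 3 alone. The reverse pattern was that of Vwf, the gene of von Willebrand factor, with 102 counts in plasma-negative replicate 3 and 0 in all other libraries, and of Adgrl4 with 6 counts in plasma-negative replicate 1. The genes of this paragraph outside the 10 were named after their values were seen.

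The ligands and partners of the receptors were followed in a list of 12 genes, of which 3 were tested by edgeR and 0 called by edgeR or DESeq2. Over all genes edgeR called 1.41% and DESeq2 5.16%. At an unadjusted p under 0.05 in edgeR there was 1 of the 3, Nrp2, beside 13.8% of all tested genes. Nrp1, the co-receptor neuropilin-1, had 312 ± 57.7 CPM in plasma-negative and 308 ± 54.4 CPM in plasma-positive libraries (SD, n = 4), a log2 change of -0.02 (edgeR, adjusted p = 0.977). Vegfb, a ligand of the Flt1 product, had 29.9 ± 11.3 and 30.6 ± 2.04 CPM, a log2 change of 0.03 (edgeR, adjusted p = 0.98). Flt4 and Angpt1 were at 0 throughout. The VEGF family ligand genes Vegfa, Vegfc and Pgf, named after their values were seen, had 0 counts in 6 libraries, with 34, 71 and 31 counts in plasma-positive replicate 2 and 52, 60 and 41 in plasma-positive replicate 3. These are the libraries that held most reads of Cldn5 and Itm2a.

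Summed markers of other cell types are given beside these results, and their part in the result for Cd34 was not tested. The groups overlapped in each of these sums but that of red cell and platelet markers, which was higher in every plasma-positive library. The 14 mural cell markers summed to between 0.336 and 4.96 CPM in plasma-negative and between 0.335 and 18.5 CPM in plasma-positive libraries, with Kcnj8, Abcc9, Higd1b and Ndufa4l2 at 0 throughout. The 10 perivascular fibroblast markers summed to at most 2.04 and 16.3 CPM, with Lum and Slc6a13 at 0. In both lists plasma-positive replicates 2 and 3 were the highest and replicate 4 the lowest of their group. The 16 neuron markers summed to 4.04 to 35.5 CPM against 30.6 to 330.6 CPM, the 12 oligodendrocyte markers to 163 to 230.5 CPM against 226 to 576 CPM, and the 11 red cell and platelet markers to 30.4 to 58.7 CPM against 75.0 to 97.9 CPM. Of the platelet and red cell list, Gp9, a platelet receptor subunit, made up most, with 47.5 ± 12.5 and 80.7 ± 9.66 CPM (SD, n = 4; edgeR, adjusted p = 0.138). In that list Hbb-bt, Ppbp and Tubb1 were among the genes at 0. Below the filter, Alas2 and Itga2b had 71 and 44 counts in the plasma-negative group against 16 and 0 in the plasma-positive group. The reverse held for Hba-a1, Hba-a2, Hbb-bs and Gp1bb, with 2, 11, 7 and 5 counts against 54, 15, 71 and 149. The called genes of these lists were Pomc, a hypothalamic neuropeptide precursor, with 0 CPM in plasma-negative and 5.31 ± 4.70 CPM in plasma-positive libraries (edgeR, adjusted p = 0.0346), and Mal, a myelin protein gene, with 0.0740 ± 0.120 and 9.92 ± 11.7 CPM (edgeR, adjusted p = 0.0326). That is 1 of 6 neuron and 1 of 7 oligodendrocyte markers tested, beside the 1.41% over all genes. Pomc and Mal passed the filter on low counts through the plasma-positive group alone, so these calls are given as description only. Mal had 1, 4, 0 and 0 counts in plasma-negative replicates 1 to 4 and 67, 535, 50 and 23 in plasma-positive ones. Of the markers that did not pass, the myelin gene Mog had 168 counts in the plasma-negative and 15 in the plasma-positive group. DESeq2 called 4 of 14 neuron markers (Pomc, Oxt, Cartpt and Nefl), 3 of 10 oligodendrocyte markers (Mal, Cspg5 and Cnp) and Gp9, beside its 5.16% over all genes. The 10 border macrophage markers summed to 208 to 267 against 181 to 238 CPM, nearly all of it Stab1 (228 ± 27.1 and 210.2 ± 23.9 CPM), while the mannose receptor gene Mrc1 stood at 1.06 ± 1.24 and 7.66 ± 7.13 CPM (SD, n = 4; edgeR, adjusted p = 0.429). The 12 astrocyte and tanycyte markers summed to 214 to 340 against 215 to 314 CPM, most of it the glutamate transporter gene Slc1a3 at 238 ± 54.3 and 185 ± 14.7 CPM (SD, n = 4; edgeR, adjusted p = 0.326). Others of that list were Slc1a2 with a log2 change of 2.74 and Aldoc with 1.58 (edgeR, adjusted p = 0.323 and 0.298), and Gfap, which did not pass the filter, with 155 counts in the plasma-negative and 74 in the plasma-positive group. In the same list edgeR called 0 of 6, and DESeq2 called 1 of 9, Aldh1l1, with 0 against 135 counts. At an unadjusted p under 0.05 in edgeR there were 3 of the 6 (Slc1a2 and Aldoc higher, Slc1a3 lower), 2 of 6 neuron, 3 of 7 oligodendrocyte and 5 of 13 microglia markers, beside 13.8% of all genes. The genes that DESeq2 alone called, and Mrc1, Slc1a2, Aldoc, Gfap, Mog, Alas2, Itga2b, Hba-a1, Hba-a2 and Gp1bb, were named after their values were seen. In plasma-positive replicate 4 Cd34 stood at 651 CPM with the mural, fibroblast and 7-gene vessel sums each under 0.5 CPM, and with Pecam1 at 45.4, the neuron sum at 30.6, the oligodendrocyte sum at 226 and the red cell and platelet sum at 75.0 CPM.

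**Figure D4:**
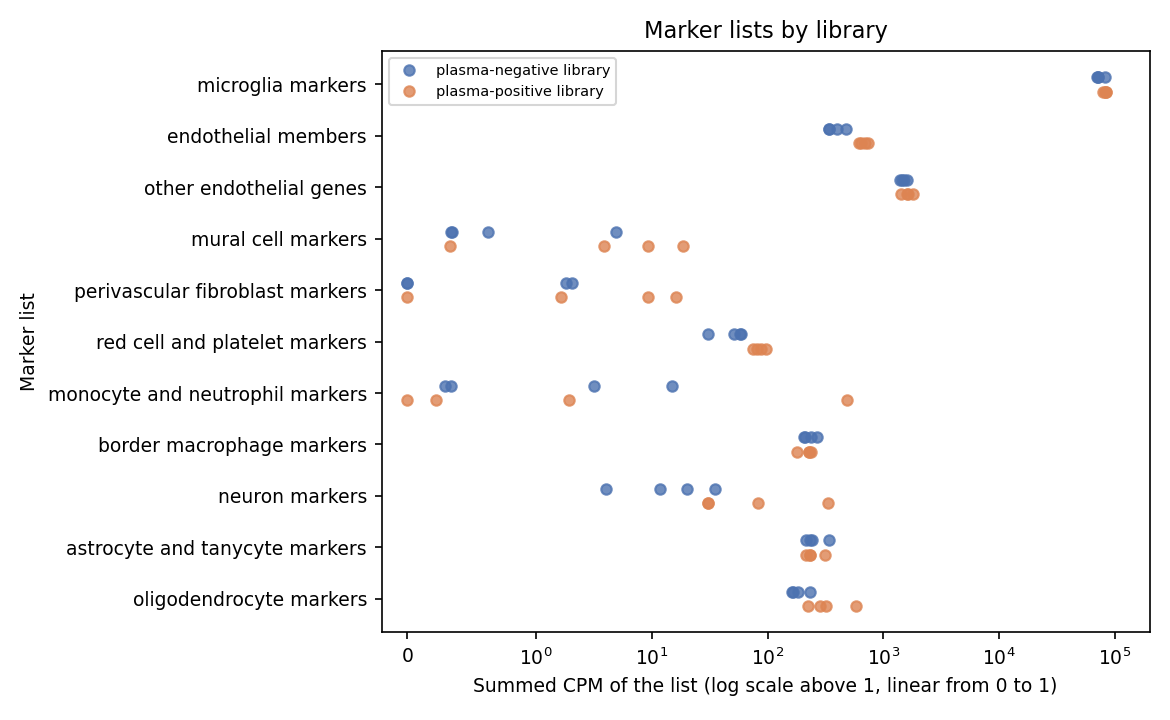
Summed CPM of each marker list in the 4 plasma-negative (blue) and 4 plasma-positive (orange) libraries, on a scale that is logarithmic above 1 and linear from 0 to 1. Microglia markers lie between 70506 and 84354 CPM in all libraries, and the mural and fibroblast lists reach at most 18.5 and 16.3 CPM.

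Of the 13 microglia markers edgeR called 2, beside 1.41% of all genes, and DESeq2 called 4, adding Fcrls and Aif1, beside 5.16%. Called by both were Csf1r, the receptor for the survival factor CSF1, with a log2 change of 0.28 (edgeR, adjusted p = 0.0049), and Olfml3, a secreted protein of microglia, with 0.37 (edgeR, adjusted p = 0.00647). Cd34 per Csf1r read was 0.0292, 0.0294, 0.0328 and 0.0383 in plasma-negative replicates 1 to 4 and 0.0522, 0.0441, 0.0456 and 0.0496 in plasma-positive replicates 1 to 4, again without overlap. Tmem119, among the highest of the list per length, had a log2 change of 0.11 (edgeR, adjusted p = 0.427). Among 9748 genes with at least 10 counts in every library or called, those whose log2 CPM was most like that of Cd34 over the 8 libraries were Abhd17a, a depalmitoylating enzyme (Pearson r = 0.988, Spearman rho = 0.976), Laptm5, a lysosomal membrane protein of white blood cells (r = 0.986, rho = 0.929), and Tmsb4x, which encodes the actin-binding peptide thymosin beta 4 (r = 0.985, rho = 0.952). In all, 149 of these genes had an r over 0.9, and the values include the difference between the groups of 4. No such value was computed for the other endothelial members, so these genes cannot be set against them. Laptm5 and Tmsb4x were called with log2 changes of 0.31 and 0.55 (edgeR, adjusted p = 0.00801 and 0.00432), and Abhd17a was not, with 0.49 (edgeR, adjusted p = 0.138).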

How the data were processed

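RNA of 8 libraries of sorted mouse microglia was sequenced after Smart-seq2. The authors deposited raw read counts per gene and, for the same genes and libraries, RPKM values (counts scaled by exon length and library size), with 1 column per library. Both tables rest on top-hit alignments, according to their headers. The submitters' processing notes name bcl2fastq, Trim Galore, STAR, HTSeq and the build mm10, without roles or versions. How reads on several loci were counted is not given in the sources used here. Of the table's gene IDs, 35546 (99.9%) were in GENCODE M21, from which exon overlap was taken.

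Library groups came from the titles. Total counts were 2963094 to 21422738. Counts were tested over all genes with edgeR 4.0.16 in R 4.3.3 (TMM factors, default filter by group, quasi-likelihood F test, no covariate, Benjamini-Hochberg adjustment, called at an adjusted p under 0.05), after the script was tested on simulated data. Log2 CPM used a prior count of 2, and 3 counts were the floor. Alternatives were other scalings and filters, DESeq2 1.42.0, limma 3.58.1 on log2(RPKM + 1) and log2(RPKM + 0.1), the replicate number as a block, a loess offset (span 0.3) for the exon length that counts divided by RPKM imply, thinning, and leaving out libraries. The members and lists were chosen with earlier results of these data known. Named were all members, the called genes of each list (up to 3, or 6 for endothelial genes) and its 2 highest (6 for endothelial genes) by mean RPKM, and the 3 genes most correlated with Cd34 and with Cldn5; some genes under this rule are not reported here. A planned correlation of Cd34 with other members is not given, since Cd34 split the libraries into 2 separate groups of 4.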

Additional observations from a re-analysis of the deposited data

Results flagged for a closer look

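In 22 of 106 groups of 4 libraries, 1 library lay far from the others, where chance gives about 5%, that is 1 in 20, for continuous values. In 9 of the 22 the other 3 libraries were at 0, where any count stands apart, so that rate does not hold for them. No explanation was tested for these values. Among the endothelial genes, Flt1 was at 0.336 CPM in plasma-negative replicate 4 and Cdh5 at 0.291 CPM in plasma-negative replicate 3, against 0 in the other plasma-negative libraries. Ly6c1 was at 3.30 CPM in plasma-positive replicate 2, against 0.152 CPM in the next. Slc2a1 was at 123 CPM in plasma-negative replicate 4, against 77.3 CPM in the next.

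Among vessel wall and connective tissue markers, Tagln was at 9.14 CPM and Dcn, which encodes the matrix proteoglycan decorin, at 10.2 CPM in plasma-positive replicate 3, against 1.07 and 0.458 CPM in the next libraries. Mgp was at 4.22 CPM in plasma-positive replicate 2, against 0.440 CPM in the next, and at 2.04 CPM in plasma-negative replicate 1. Vtn was at 0.0886 CPM in plasma-negative replicate 1, on 2 counts, and Dcn at 0.175 CPM in plasma-negative replicate 3, on 3 counts. The mural cell markers summed to 4.96 CPM in plasma-negative replicate 1, against 0.629 CPM in the next.

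Among blood cell markers, S100a8 was at 299.9 CPM and S100a9 at 170.8 CPM in plasma-positive replicate 3, and the monocyte and neutrophil list summed to 482 CPM there, against 1.93 CPM in the next. S100a9 was at 0.0582 CPM in plasma-negative replicate 3, on 1 count. Pf4, a platelet and border macrophage gene, was at 3.61 CPM in plasma-negative replicate 3 and at 0.661 CPM in plasma-positive replicate 2, with 0 in the others of each group.

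Among markers of brain cells, Sst, the somatostatin gene, was at 16.6 CPM and Aldoc, an astrocyte enzyme, at 42.0 CPM in plasma-positive replicate 2, against 2.75 and 10.9 CPM in the next libraries. Cnp was at 182 CPM in plasma-positive replicate 3, against 154 CPM in the next. Csf1r was at 11473 CPM in plasma-negative replicate 4, against 10577 CPM in the next, and the microglia markers summed to 82908 CPM there, against 72068 CPM.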

How the results depend on the processing

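Cd34 stayed higher with plasma label in all 21 alternatives tried, with log2 changes of 0.73 to 0.98, and past an adjusted p of 0.05 in 18 of them. The exceptions were the length offset (0.86, edgeR, adjusted p = 0.0737), the length offset with the replicate block (0.88, edgeR, adjusted p = 0.146) and leaving out plasma-positive replicates 2 and 3 together, an alternative chosen after seeing the data (0.92, edgeR, adjusted p = 0.0766). In these 3 the number of the 10 endothelial genes called was 0 in place of 1, and the genes called over the whole table were 16, 3 and 15 in place of 187; the cause was not tested beyond the fewer libraries of the third. Leaving out each library in turn kept Cd34 called in all 8 fits (0.78 to 0.97, edgeR, adjusted p at most 0.0319), with 66 to 203 genes called, the highest without plasma-negative replicate 4 and the lowest without plasma-negative replicate 3. DESeq2 called 965 genes, limma on log2(RPKM + 1) 447 and on log2(RPKM + 0.1) 432; the cause was not tested. The share of calls that were higher was 59.9%, and 28.2% with library totals only, 86.8% and 85.6% in the RPKM fits, and the median of all tested genes lay at -0.11, 0.11 and 0.16 (log2) there in place of 0.01. Pecam1 ranged from -0.0014, without plasma-positive replicate 1, to 0.58, without plasma-positive replicate 3, when single libraries were left out, and was 0.85 without plasma-positive replicates 2 and 3. The difference between groups in the log2 ratio of Cd34 to Kdr was 1.29, ranged from 0.61 without plasma-negative replicate 3 to 2.84 without plasma-negative replicate 2 (exact permutation p = 0.8 and 0.0286), and was 0.84 with a prior count of 0.5, and that in the ratio to Pecam1 ranged from 0.31 to 0.98 with no change of call. With the replicate block 74 genes were called, Cd34 among them with 0.85 (edgeR, adjusted p = 0.0163), while Kdr was at -0.79 and Pecam1 at 0.18. Same-numbered libraries deviated together by correlations of 0.0109 to 0.0315 (0.0167 on average, -0.00556 for other numbers), and 3 of 8 libraries correlated best with their own number, so these data gave no sign that the numbers pair the libraries, and the labels do not say whether they do. The planned correlation of Cd34 with the other members, and its second prior count, were not run. Pomc was not called with the replicate block (edgeR, adjusted p = 0.14), and Mal was (edgeR, adjusted p = 0.0401). The pooled bounds without 1 library were added after seeing the data. Depth limits the genes at 0 most in plasma-negative replicate 4, where 3 counts are 1.01 CPM.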

Other observations

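Cldn5 was at 0 in 5 of the 8 libraries, so that its likeness to other genes is set by plasma-positive replicates 2 and 3 and by the difference between the groups. Among the genes most like it in log2 CPM over the 8 libraries were Tbl3, a ribosome biogenesis factor (Pearson r = 0.973, Spearman rho = 0.771), and Rab18, a small GTPase of lipid droplets (r = 0.964, rho = 0.94), out of 9749 genes with at least 10 counts in every library or called. Neither was called by edgeR (adjusted p = 0.169 and 0.215).

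Angpt2, the gene of the TIE2 ligand angiopoietin-2, named after its values were seen, had most of its reads in plasma-negative libraries. It had 39, 4, 91 and 0 counts in plasma-negative replicates 1 to 4 and 7 counts in plasma-positive replicate 2, with 0 in the other 3 plasma-positive libraries. Vwf and Pf4 also had their highest value in plasma-negative replicate 3, at 102 and 62 counts. None of these 3 genes passed the filter on low counts, and with no filter edgeR did not call them (adjusted p = 0.355 for Angpt2, 0.292 for Vwf and 0.657 for Pf4).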
